A study of Homo sapiens with 6 samples.

Results

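The genes described here are the replication-dependent histone genes of the human histone clusters, which encode the linker histone H1 and the core histones H2A, H2B, H3 and H4. They were chosen by symbol (H1-1 to H1-6 and every numbered H2AC, H2BC, H3C and H4C gene) and 65 of the 60483 rows of the count table carried such a symbol: 6 H1, 15 H2A, 18 H2B, 11 H3 and 15 H4 genes. RNA-seq was performed on 3 libraries of HAP1 (C631) cells, labelled WT, and 3 libraries of their HELLS KO derivative, both under normal growth with no drug. HAP1 is a near-haploid human line of chronic myelogenous leukemia origin, and HELLS is a chromatin remodeler of the SNF2 family. The HELLS KO line is 1 edited clone, so a feature of that clone and an effect of HELLS loss cannot be told apart, and replicate 3 of both genotypes carries a batch label that replicates 1 and 2 do not.

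Replication-dependent histone mRNAs are made in S phase, when new DNA must be packaged, and their levels fall when DNA synthesis stops. They are the mRNAs of animal cells that normally end without a poly(A) tail: a short stem-loop after the stop codon is bound by the stem-loop binding protein SLBP, and the U7 snRNP directs cleavage just downstream of it. Transcription takes place at histone locus bodies organised by NPAT, the coactivator that responds to cyclin E-CDK2. The replacement histones (for example H3.3 and H2A.Z) are made throughout the cell cycle from ordinary polyadenylated mRNAs.

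The genes sit in 4 places of GRCh38. The major cluster on chromosome 6 (25723397-27893891) holds 53 of the 65, 9 lie on chromosome 1 at 149782689-149887965, 2 lie on chromosome 1 at 228434777-228463104, and H4C16 is alone on chromosome 12 (14767999-14771131). Within 100 bases after the stop codon, a search for the stem-loop form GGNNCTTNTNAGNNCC on the transcript strand (GENCODE 44) found it in 65 of 65 cluster genes and in 3 of 19855 other protein-coding genes (0.0151%), namely H2AX, H3-4 and H3-7. The versions carried by more than 1 gene are shown because they divide the genes by histone type, with capitals marking the bases that differ from the commonest version.
Stem-loop of 36 genes (4 H1, 11 H2A, 12 H2B, 9 H3): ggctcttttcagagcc
Stem-loop of 10 H4 genes: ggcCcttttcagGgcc
Stem-loop of 9 genes (2 H1, 1 H2A, 5 H2B, 1 H3): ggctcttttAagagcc
Stem-loop of 4 H4 genes: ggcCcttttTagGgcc

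All 15 H4 genes carried both the C and the G shown in capitals in the H4 lines, whereas no H1, H2A, H2B or H3 gene had both changes. H2AC11 had the G change alone (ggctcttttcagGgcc). The annotated 3′ end was at most 18 bases past the stem-loop for 48 genes, and lay 430 bases or more beyond it for 17.

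Promoter letters also differed from those of other genes. Of 60 cluster genes found in the RefSeq promoter windows (GRCh38.p14, 250 bases before to 50 after the start, both strands searched), 65.0% held TATAAA against 11.8% of 27241 other genes, 83.3% held CCAAT against 35.6%, and 43.3% held the octamer ATTTGCAT against 1.71%. The octamer occurred in 11 of 14 H2A and 14 of 18 H2B promoters but in 0 of 6 H1 and 0 of 13 H4 promoters, and CCAAT in every H1, H2A, H2B and H3 promoter but in 3 of 13 H4 promoters. An H2A and an H2B gene stood head to head with 169 to 250 bases between their starts in 12 places. The 235 bases between the starts of H2BC21 (leftward) and H2AC20 (rightward) at chr1:149886683-149886917 are shown, on the plus strand of GRCh38.p14, because both mRNAs start from this one stretch and are compared below.
H2BC21 to H2AC20: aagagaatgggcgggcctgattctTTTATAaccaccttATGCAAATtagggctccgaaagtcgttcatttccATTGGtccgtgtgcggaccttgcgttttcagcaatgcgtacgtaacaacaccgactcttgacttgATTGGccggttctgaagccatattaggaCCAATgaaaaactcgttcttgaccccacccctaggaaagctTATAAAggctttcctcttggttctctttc

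Capitals mark 2 TATAAA, 3 CCAAT and 1 ATTTGCAT matches, each on either strand. A match is a match of letters and was not tested as a binding site.

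Total counts were 13641237 to 14859360 for replicates 1 and 2 and 24126357 to 24400187 for replicate 3, so a count of 3 corresponded to 0.123 to 0.218 CPM, the count scaled to library size by TMM. HELLS mRNA was 102, 108 and 153 CPM in HAP1 and 96.9, 96.3 and 115 CPM in HELLS KO, and its fitted log2 fold change was -0.24 (SE 0.18, edgeR adjusted p = 1.00). Its mRNA level therefore did not separate the genotypes by this test, and the labels rest on the edit, a 1-base insertion, rather than on loss of the transcript. Of 12 blood markers 9 stayed under 1 CPM in every library, with HBG1 and SPI1 at 0. The summed level of the 12 was 22.7 to 41.2 CPM in HAP1 and 3.78 to 7.68 CPM in HELLS KO, carried by KIT, a stem cell factor receptor, at 22.4, 19.6 and 38.9 CPM in HAP1 and 2.20, 2.801 and 5.67 CPM in HELLS KO (log2 fold change -2.90, SE 0.43, edgeR adjusted p = 0.0153). Fibroblast markers, summed over 10 genes, were 152.9 to 173 CPM in HAP1 and 65.0 to 81.9 CPM in HELLS KO. DCN, FAP and LUM were at 0, and POSTN, a matrix protein, was lower in HELLS KO (log2 fold change -4.31, SE 0.78, edgeR adjusted p = 0.0370). COL1A1, a collagen gene, was 77.6, 76.2 and 35.6 CPM in HAP1 and 41.2, 49.9 and 35.7 CPM in HELLS KO. Its log2 fold change was -0.58 (SE 0.30), and it was not called. PDGFRA, a growth factor receptor, was 73.6, 66.6 and 109 CPM in HAP1 and 18.4, 24.1 and 40.05 CPM in HELLS KO. The fitted value was -1.59 on the log2 scale (SE 0.32), with an edgeR adjusted p of 0.0605, and of 0.000237 with the replicate block, under which it was called. Of the 5 fibroblast markers tested, 2 had estimates above 0: THY1 at 0.12 (SE 0.33) and PDGFRB at 0.05 (SE 0.39), neither called. The part of these marker differences in the histone values was not tested.

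Histone cluster mRNAs were counted at low levels. Of the 65 genes, 11 had no count in any library (H1-6, H2AC1, H2AC14, H2AC15, H2AC16, H2AC17, H2BC1, H3C11, H4C13, H4C15 and H4C7), and 18 more had too few counts to be tested, the most abundant of them with 56 counts over the 6 libraries. A count of 0 allows up to 0.218 CPM per library only for genes whose reads map to 1 place, and H4C15, H2AC17 and H2AC14 share 100%, 69.2% and 68.8% of their 31-base stretches with other genes. The filter on low counts, applied by genotype over all genes, passed 36: 3 H1, 7 H2A, 12 H2B, 6 H3 and 8 H4 genes. Per length, these had a median of 4.16 FPKM over all libraries, with a range of 0.486 to 46.9 FPKM, against a median of 7.39 FPKM over the 17925 genes tested, and 4 of the 36 lay above that median. How RNA with and without poly(A) tails was selected is not given in the sources used here. Intervals and limits quoted from counts cover counting error only.

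The most abundant member per length was H2BC12, an H2B gene at chr6:27146361-27146855, minus strand, with 46.9 ± 8.73 FPKM (SD over 6 libraries). It shares 71.0% of its 31-base stretches with other genes, so its counts are uncertain. At 100 bases the share was 22.5%, with H2BC12L and another annotated gene. It read 19.3, 17.8 and 14.01 CPM in HAP1 replicates 1, 2 and 3 and 22.9, 20.2 and 14.7 CPM in the HELLS KO replicates. In both genotypes replicate 3 was the lowest, and the genotypes overlapped. H1-2, a linker histone gene at chr6:26055740-26056470, minus strand, followed with 19.6 ± 3.404 FPKM and 9.14, 11.9 and 13.8 CPM in HAP1 replicates 1, 2 and 3 and 15.9, 12.7 and 13.2 CPM in the HELLS KO replicates. H2AC25, an H2A gene at chr1:228434777-228457873, minus strand, had 13.9 ± 2.68 FPKM and 13.2, 14.5 and 9.21 CPM in HAP1 replicates 1, 2 and 3 and 15.5, 13.02 and 10.4 CPM in the HELLS KO replicates. These 3 genes all overlapped between genotypes, with fitted log2 fold changes of 0.17 (SE 0.23), 0.26 (SE 0.22) and 0.07 (SE 0.25).

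The other tested members were each below 10 FPKM. The order of genes per length rests on the authors' gene lengths, which ran from 312 to 5475 bases over the 36 genes, and were, for example, 381 bases for H2BC12 and 1294 for H4C9. Summed per length over the members in the authors' FPKM table, H2B genes reached 83.8 ± 14.03 FPKM in HAP1 (SD, n = 3, 14 genes) and 99.0 ± 21.9 FPKM in HELLS KO. The H2A, H4, H1 and H3 sums were 34.4 ± 4.14, 33.4 ± 6.41, 26.8 ± 2.12 and 17.7 ± 3.70 FPKM in HAP1 (SD, n = 3). The H4 sums of single HAP1 libraries, 26.1 to 37.9 FPKM, overlapped those of both H2A (29.8 to 37.8 FPKM) and H1 (24.4 to 28.5 FPKM), so H4 is not separated from either in this order. Single replacement histone genes were in the same range: H2AX, which carries the stem-loop form and also makes a polyadenylated mRNA, had 67.1 ± 19.4 FPKM in HAP1 and 66.1 ± 20.6 FPKM in HELLS KO, and H3-3B, which encodes H3.3, had 30.2 ± 3.66 and 29.4 ± 4.12 FPKM (SD, n = 3 each).

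**Figure D1:**
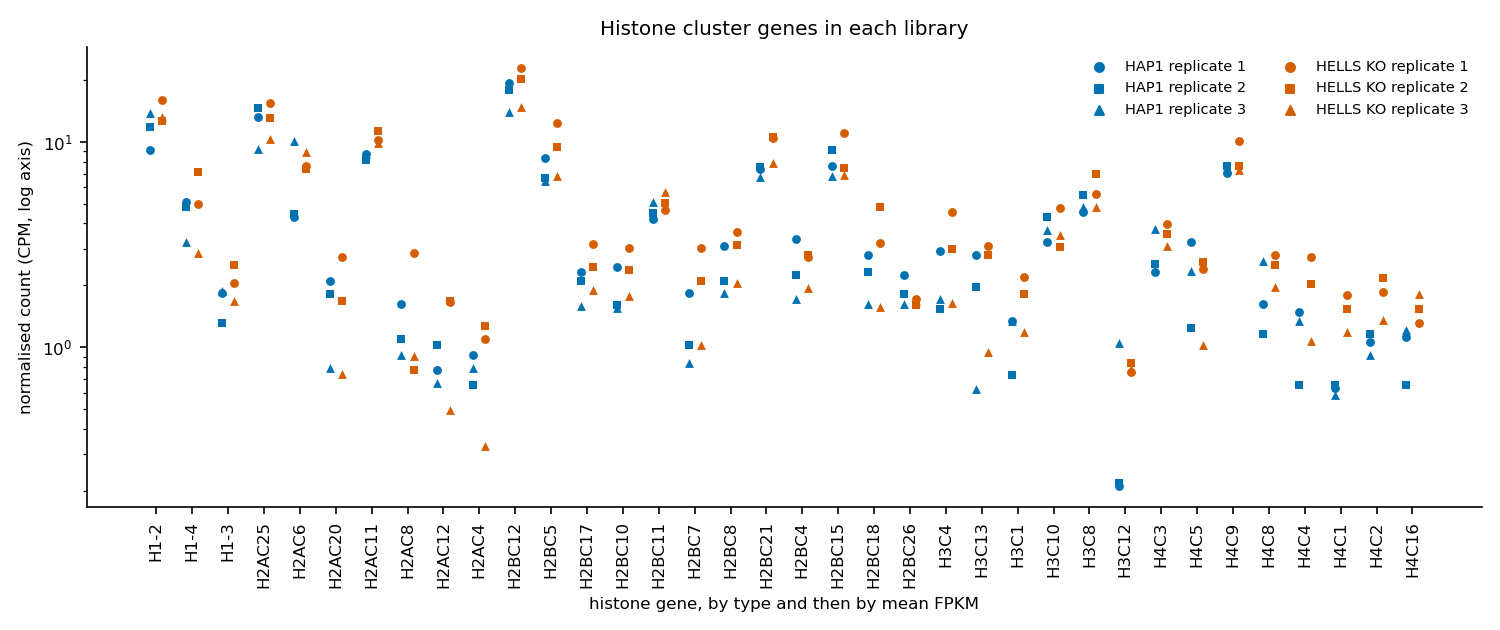
Normalised counts (CPM, log axis) of the 36 tested histone cluster genes, grouped by histone type on the horizontal axis and ordered within it by mean FPKM, with 1 point per library, coloured by genotype and shaped by replicate. HELLS KO replicate 1 or 2 (circles and squares) is the highest library for 29 of 36 genes, a count not made over all genes. Both replicate 3 libraries (triangles) are the lowest for 11, H2AC20 and H3C13 among them, against 30.5% of all genes tested.

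The genotype comparison asked whether histone mRNA differed in cells without HELLS. No histone cluster gene passed the threshold between genotypes (edgeR quasi-likelihood test, Benjamini-Hochberg adjusted p under 0.05 over all 17925 genes and a log2 fold change of at least 1 in size), against 1.5% of all tested genes called higher and 0.72% called lower in HELLS KO. At an unadjusted p under 0.05 there was 1 of 36 members by edgeR, against 1181 of all 17925 genes tested. By DESeq2 it was also 1 of 36 members, and DESeq2 called 0 of them. The estimates nevertheless lay mostly on one side: 34 of 36 were above 0 (94.4%), against 52.0% of all tested genes, and the members' median log2 fold change was 0.32 against 0.01 for all genes. The median was 0.17 with 27 of 36 above 0 without HELLS KO replicate 1, and 0.50 with 35 of 36 above 0 without HELLS KO replicate 3. These genes share libraries, loci and in part sequence, so their number is not a number of independent observations. Because histone mRNA is tied to S phase, a different share of cells in S phase and a different amount of mRNA per cell cannot be told apart in bulk RNA.

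By histone type, the median log2 fold change was 0.26 for H1 (3 genes tested), 0.29 for H2A (7), 0.32 for H2B (12), 0.45 for H3 (6) and 0.52 for H4 (8). Every H1, H2A and H3 gene tested was above 0, and the members below 0 were H2BC26 at -0.18 (SE 0.30) and H4C5 at -0.20 (SE 0.49). With 1 library left out the medians ranged from 0.15 (without HELLS KO replicate 2) to 0.44 (without HELLS KO replicate 3) for H1, and from -0.05, 0.14 and 0.19 (without HELLS KO replicate 1) to 0.51, 0.51 and 0.66 (without HELLS KO replicate 3) for H2A, H2B and H3. For H4 the range was 0.31 (without HAP1 replicate 2) to 0.73 (without HAP1 replicate 3), so the order of the types is not stable. Differences between types were not tested, and the single-gene standard errors were 0.18 to 0.64.

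Among H4 genes, which encode the most conserved core histone, 3 had all HELLS KO libraries above all HAP1 libraries. H4C1, at chr6:26021649-26022050, plus strand, read 0.633, 0.655 and 0.584 CPM in HAP1 replicates 1, 2 and 3 and 1.79, 1.54 and 1.19 CPM in the HELLS KO replicates, corresponding to 9 to 14 counts in HAP1 and 22 to 29 counts in HELLS KO. Its log2 fold change was 1.26 (SE 0.36), and its edgeR adjusted p of 0.247 did not pass. H4C2 had 1.05, 1.16 and 0.917 CPM in HAP1 replicates 1, 2 and 3 and 1.86, 2.17 and 1.36 CPM in the HELLS KO replicates (0.77, SE 0.35, edgeR adjusted p = 0.825). H4C16, the lone gene on chromosome 12, had 1.13, 0.655 and 1.21 CPM in HAP1 replicates 1, 2 and 3 and 1.31, 1.54 and 1.81 CPM in the HELLS KO replicates, and the fitted log2 value was 0.63 (SE 0.37). H4C1 thus had an unadjusted p of 0.00913 in the edgeR fit, and none of these 3 genes passed after adjustment over all genes.

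The 3 most abundant H4 genes per length did not separate. H4C3 was 2.32, 2.55 and 3.75 CPM against 3.99, 3.57 and 3.12 CPM, HAP1 against HELLS KO, and its highest HAP1 library was replicate 3. H4C5 was 3.24, 1.24 and 2.33 CPM against 2.41, 2.59 and 1.03 CPM, with the lowest value of all in HELLS KO replicate 3. H4C9 was 7.03, 7.64 and 7.34 CPM against 10.04, 7.63 and 7.31 CPM. Their log2 fold changes were 0.30 (SE 0.29), -0.20 (SE 0.49) and 0.18 (SE 0.21).

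Outside H4, the genotypes separated without overlap for H2AC11, at 8.72, 8.15 and 8.67 CPM against 10.2, 11.3 and 9.82 CPM (0.29, SE 0.18), and for H2BC21, at 7.38, 7.49 and 6.75 CPM against 10.4, 10.5 and 7.84 CPM (0.41, SE 0.21, edgeR adjusted p = 0.997), both singled out after their values were seen. In all, 5 of 36 tested members (13.9%) had no overlap with HELLS KO higher, and 0 with HELLS KO lower, against 4.99% and 5.09% of all tested genes. H2AC11 and H2BC21 have lengths of 2249 and 2259 bases in the authors' annotation, and where the bases beyond the coding sequence lie was not tested.

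H3 genes encode the histone whose tail carries much of the methylation and acetylation of chromatin. H3C4 had 2.95, 1.53 and 1.71 CPM in HAP1 replicates 1, 2 and 3 and 4.54, 3.01 and 1.64 CPM in the HELLS KO replicates, and its log2 fold change was 0.56 (SE 0.46). H3C1 had 1.34, 0.727 and 1.33 CPM against 2.20, 1.82 and 1.19 CPM (0.59, SE 0.41), with HAP1 replicate 2 the lowest and HELLS KO replicates 1 and 2 above all HAP1 libraries. H3C13 had 2.81, 1.96 and 0.625 CPM against 3.09, 2.801 and 0.945 CPM (0.35, SE 0.64), where replicate 3 was the lowest in both genotypes. H3C4 and H3C13 share 96.6% and 80.4% of their 31-base stretches with other genes, so their counts are uncertain. At 100 bases H3C4 shared 96.0%, with an annotated read-through transcript. H3C13 shared 46.2% at 100 bases, most of all with H3-7, H3C14 and H3C15. H3C1, H1-3 and H4C3 shared 0.

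The remaining abundant H1, H2A and H2B genes overlapped between genotypes. H1-4 was 5.06, 4.801 and 3.25 CPM against 4.95, 7.14 and 2.88 CPM and H1-3 was 1.83, 1.31 and 1.88 CPM against 2.06, 2.52 and 1.68 CPM, HAP1 against HELLS KO. H2AC6 was 4.29, 4.44 and 10.1 CPM against 7.63, 7.35 and 8.91 CPM, so that HAP1 replicate 3 was its highest library of all. H2BC5 was 8.37, 6.69 and 6.46 CPM against 12.3, 9.38 and 6.82 CPM and H2BC17 was 2.32, 2.11 and 1.58 CPM against 3.16, 2.45 and 1.89 CPM. The log2 fold changes of H1-4, H1-3, H2AC6, H2BC5 and H2BC17 were 0.19 (SE 0.38), 0.31 (SE 0.33), 0.33 (SE 0.36), 0.40 (SE 0.27) and 0.32 (SE 0.33), none past the threshold.

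Summed over all genes of a type, the libraries stood as follows. H4 sums were 19.3, 16.1 and 20.9 CPM in HAP1 and 27.7, 24.1 and 19.3 CPM in HELLS KO (log2 ratio of means 0.34). H3 sums were 15.5, 14.3 and 13.5 CPM in HAP1 and 20.96, 18.7 and 12.9 CPM in HELLS KO (0.28). H2B sums were 65.5, 59.3 and 50.4 CPM in HAP1 and 82.4, 72.1 and 54.2 CPM in HELLS KO (0.25). In each of these types HELLS KO replicates 1 and 2 were above every HAP1 library and HELLS KO replicate 3 was inside or below the HAP1 range. H2A sums were 32.8, 32.4 and 32.1 CPM in HAP1 and 43.99, 38.4 and 32.4 CPM in HELLS KO (0.24), and H1 sums were 16.03, 17.97 and 18.97 CPM in HAP1 and 22.96, 22.3 and 17.9 CPM in HELLS KO (0.25). All 65 genes together took 141.6 ± 6.80 CPM in HAP1 and 170.1 ± 31.01 CPM in HELLS KO (SD, n = 3 each), and the genotypes overlapped for every type.

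The second comparison set replicate 3 against replicates 1 and 2. Within replicates 1 and 2 the log2 ratio of HELLS KO to HAP1 was 0.41 for H1, 0.34 for H2A, 0.31 for H2B, 0.42 for H3 and 0.55 for H4 sums. Within replicate 3, with 1 library per genotype and no replicate check, it was -0.09, 0.02, 0.11, -0.06 and -0.12. Gene by gene, 32 and 29 of the 36 tested members were higher in HELLS KO in replicates 1 and 2, and 17 of 36 in replicate 3, against 50.3%, 52.6% and 44.6% of all tested genes. Among H2B genes, 10, 10 and 11 of 12 were higher in HELLS KO in replicates 1, 2 and 3, whereas among H4 genes the counts were 7, 7 and 3 of 8.

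The test of this difference itself, the interaction of genotype and batch, called 0 members and 0% of all genes (edgeR adjusted p under 0.05, 2 residual degrees of freedom). At an unadjusted p under 0.05 there were 3 of 36 members by edgeR (H2AC6, H3C12 and H4C8, named after their values were seen) and 0 by DESeq2. Over all 17925 genes tested there were 548 by edgeR. The interaction was below 0, that is a smaller HELLS KO excess in replicate 3, for 31 of 36 members (86.1%) and for 55.1% of all genes. So the genotype difference is not shown to differ between batches for any gene.

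**Figure D2:**
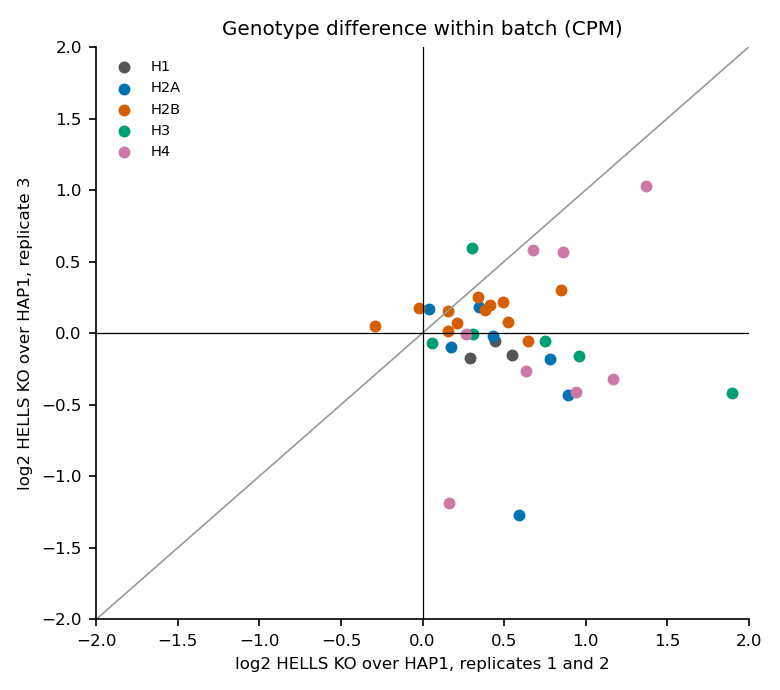
Log2 ratio of CPM, HELLS KO over HAP1, in replicates 1 and 2 (horizontal axis, ratio of means) and in replicate 3 (vertical axis, 1 library per genotype) for the 36 tested genes, coloured by type, with the line of equality. Most points lie to the right of 0 and below the line, and H4C1 lies to the upper right, above 0 on both axes.

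For all 65 genes summed, the log2 ratio of replicate 3 to replicates 1 and 2 reached -0.45 for HELLS KO against -0.09 for HAP1. Among HAP1 sums, H1 (0.16) and H4 (0.24) rose, H2A (-0.03) hardly moved, and H2B (-0.31) and H3 (-0.14) fell. Every HELLS KO sum fell, from -0.34 (H1) to -0.62 (H3). Replicate 3 has 1 library per genotype, so this contrast has no replicate check. Gene by gene, with both genotypes in 1 fit, most estimates were lower in replicate 3. Of the 36 members, 4 were called lower (edgeR, genotype in the model, adjusted p under 0.05 and log2 of at least 1 in size) and 0 higher, against 5.36% and 2.91% of all genes, and 29 of 36 estimates were below 0 against 48.1% of all genes. H3C13, at chr1:149813225-149813693, minus strand, fell most, by a log2 difference of -1.77 (SE 0.31) with an adjusted p of 0.00372. H2AC20, at chr1:149886918-149887411, plus strand, was 2.11, 1.82 and 0.792 CPM against 2.75, 1.68 and 0.739 CPM, HAP1 against HELLS KO, and its log2 difference was -1.44 (SE 0.34), adjusted p 0.0113. H2BC7 was 1.83, 1.02 and 0.834 CPM against 3.02, 2.10 and 1.03 CPM (-1.06, SE 0.37, adjusted p 0.0463), and H2BC18 was 2.81, 2.33 and 1.63 CPM against 3.23, 4.83 and 1.56 CPM (-1.02, SE 0.31, adjusted p 0.0271). H2BC18 and H2AC20 share 60.3% and 39.2% of their 31-base stretches with other genes, so their counts are uncertain. At 100 bases the shares were 36.7% and 12.7%. In H3C13, H2AC20 and H2BC18, but not in H2BC7, both replicate 3 libraries lay below all 4 others. This held for 11 of 36 members in all, and for 30.5% of all genes tested. H2BC7 was not called by DESeq2 or without HELLS KO replicate 1, and H2BC18 was not called without HELLS KO replicate 2. Neither was called without a filter, on log2(FPKM) with either pseudocount, or without HAP1 replicate 1. With HAP1 replicate 3 left out 0 members were called, and with HELLS KO replicate 3 left out only H3C13 was called lower while H2AC6 and H3C12 were called higher.

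The median log2 difference of replicate 3 was -0.10 for H1, -0.79 for H2A, -0.49 for H2B, -0.22 for H3 and -0.24 for H4 genes, and 0.03 for all genes. Against this trend, H2AC6 was 0.73 (SE 0.23) and H3C12 was 0.94 (SE 0.53), neither called. Short mRNAs of other kinds also had lower medians in replicate 3. Other protein-coding genes under 700 bases in the authors' annotation had a median log2 difference of -0.61 (49 genes, 83.7% below 0), and histone cluster genes of that length had -0.53 (21 genes, 85.7% below 0). Above 2000 bases the medians were 0.05 over 12445 other genes and -0.22 over 7 histone genes. The part of gene length in the batch values was not tested further. For the genotype comparison, other coding genes under 700 bases had a median of -0.03 and the histone genes 0.33.

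**Figure D3:**
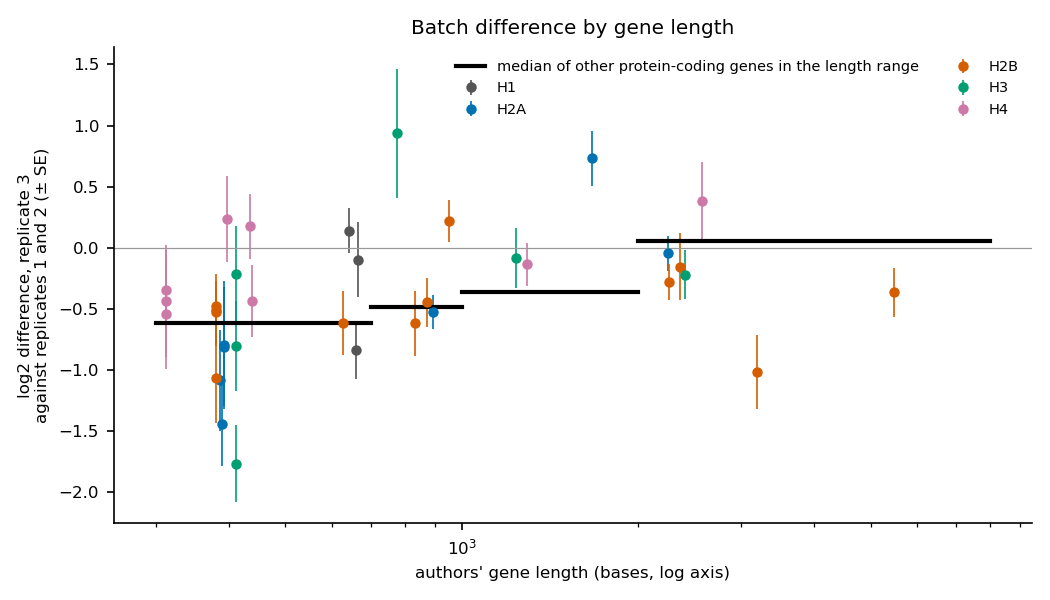
Log2 difference of replicate 3 against replicates 1 and 2 (vertical axis, ± SE, edgeR) of the 36 tested histone cluster genes against the authors' gene length (bases, log axis), with black lines for the median of other protein-coding genes in each length range, the outer ranges drawn only as far as the axis. Both the shortest histone genes and the median of other genes under 700 bases, -0.61, lie below 0.

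Head-to-head pairs set 2 mRNAs with 1 start region side by side, and differences within a pair were not tested. H2BC21 and H2AC20, which start from the 235 bases printed above, had 3.66 and 4.16 FPKM, over authors' lengths of 2259 and 390 bases. In CPM, which is not corrected for length, H2BC21, the longer gene, was the higher in every library. CPM therefore does not compare their levels per length. Replicate 3 differed by -0.28 (SE 0.15) in H2BC21 and by -1.44 (SE 0.34) in H2AC20. Both genes of a pair were tested in 6 of the 12 H2A-H2B pairs: both genotype estimates were above 0 in 5 pairs, and both batch estimates below 0 in 4. Levels within a pair could be far apart: H2AC25 and H2BC26 had 13.9 and 0.744 FPKM, and H2BC12 and H2AC12 had 46.9 and 2.66 FPKM with genotype estimates of 0.17 (SE 0.23) and 0.62 (SE 0.54).

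No gene of the lists of histone mRNA processing, histone transcription, histone chaperones and replacement histones was called between genotypes. SLBP read 125, 128 and 109.9 CPM in HAP1 and 131, 128 and 106 CPM in HELLS KO, and its estimate was 0.01 on the log2 scale (SE 0.13, edgeR adjusted p = 1.00). NPAT was 54.7, 44.4 and 98.8 CPM in HAP1 and 52.6, 70.7 and 104 CPM in HELLS KO (0.20, SE 0.35), and CASP8AP2, a histone locus body protein, was 83.1, 72.7 and 137 CPM in HAP1 and 63.99, 109 and 136 CPM in HELLS KO (0.08, SE 0.33). For NPAT and CASP8AP2 the replicate 3 libraries were the highest in both genotypes, opposite to most histone genes. Between genotypes, 0 of 21 genes of histone mRNA processing, 0 of 10 of histone transcription, 0 of 24 histone chaperones and 0 of 11 tested replacement histones passed in either direction, with median log2 fold changes of 0.04, 0.06, 0.00 and -0.03. At an unadjusted p under 0.05 only the replacement histone gene MACROH2A2 was found among these (log2 fold change -0.54, SE 0.14, edgeR adjusted p = 0.159). It was 59.6, 62.5 and 53.9 CPM in HAP1 and 44.3, 40.1 and 37.0 CPM in HELLS KO. With the replicate block its edgeR adjusted p was 0.0177, but its log2 fold change did not reach the size needed for a call.

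Nor was any gene of the cell-cycle lists called. Of 40 S-phase genes and 24 G2/M genes, all tested, 0 had an unadjusted p under 0.05, and the medians were 0.02 and 0.01. Summed S-phase mRNA was 5436 to 6051 CPM in HAP1 and 5381 to 6220 CPM in HELLS KO. In the batch comparison the replacement histones H1-10 and H3-5 were called lower in replicate 3 (log2 difference -1.04, SE 0.07, and -1.70, SE 0.34, edgeR adjusted p = 0.000667 and 0.00599), and no gene of the processing, transcription, chaperone, S-phase or G2/M lists was called. Median log2 differences of these 5 lists were -0.02, 0.05, -0.17, -0.16 and -0.05, against 0.03 for all genes. Some S-phase genes passed the adjusted p but not the size needed, in both directions. Examples are CDT1 (-0.74, SE 0.06, edgeR adjusted p = 0.00075) and CCNE2 (0.70, SE 0.15, edgeR adjusted p = 0.00668).

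Other genes within the chromosome 6 cluster gave a local background. The 19 non-histone genes tested there had a median log2 fold change of 0.14, with 15 above 0 and 1 called, ZNF204P, while the 29 histone genes tested there had 0.32. In replicate 3 these neighbours had a median log2 difference of 0.16 and the histone genes -0.43.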

How the data were processed

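Raw counts and FPKM values were deposited by the authors for 6 libraries. Per the methods and labels, reads were aligned with STAR 2.7.3a to GRCh38, non-duplicated reads above a mapping quality limit were kept, and the deposited counts were made with featureCounts 2.0.6. The annotation version and strand setting are not given in the sources used here. The deposited FPKM values hold 24956 genes and could be recomputed from the counts for 100% of values (within 0.1%), which also gave the authors' gene lengths. Removal of duplicates and of reads mapping to several places can lower the counts of short, abundant and near-identical genes: 18 of 36 tested members shared at least 10% of their 31-base stretches with other genes. Over 100 bases, the read length, shares could be far lower, for example 22.5% for H2BC12 and 0% for H2AC11. For H3C4 the share remained 96.0%. Of 69 symbols in GENCODE 44, 65 were matched (H2AC18, H2AC19, H3C2 and H3C3 were not analysed here). 0 value columns were left unmatched to a sample.

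The test was the quasi-likelihood test of edgeR 4.0.16 (R 4.3.3) on counts scaled by TMM after its filter on low counts, with the SE taken from the log2 fold change and its F and with Benjamini-Hochberg adjustment over all 17925 genes. A call needed an adjusted p under 0.05 and a log2 fold change of at least 1. The batch test added replicate 3 as a term beside genotype, and the interaction test their product. Alternatives used DESeq2 1.42.0 and limma 3.58.1 on log2(FPKM + 1) and log2(FPKM + 0.1), other scalings and filters, and left out each library. Methods were tested on simulated data. Replicate numbers were taken from the labels. Deviations of same-numbered libraries from their genotype mean correlated at 0.47, 0.22 and 0.81 across genes. Libraries of different number were not compared, and replicate 3 shares a batch label. This check therefore cannot show that replicates 1 and 2 are paired by number. Values given are from the fit without the replicate block, and the blocked fit was an alternative. The sources call the libraries biological replicates without naming separate cultures, so p-values measure the spread between these libraries. Members named were the 3 most abundant per type, those called, the 3 most extreme in each direction without overlap or in the batch test, and the 2 most and least shared in sequence. Other genes were named after their values were seen, or as the called genes of a list. The members and lists were chosen with earlier results of these data known.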

Additional observations from a re-analysis of the deposited data

How the results depend on the processing

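No histone cluster gene was called between genotypes under any alternative, the replicate block (0 members) and leaving out each library included, and none in the interaction test under the 5 alternatives added after the data were seen. The type sums moved by less than the spread between replicates under all 50 alternatives, with positive ratios in each. Leaving out 1 of 3 libraries cannot move a genotype mean by as much as its SD, so for those alternatives a small move was largely fixed in advance. Replicate 3 alone was not among the alternatives. There the log2 ratios were -0.09 for H1, 0.02 for H2A, 0.11 for H2B, -0.06 for H3 and -0.12 for H4. Members called lower in replicate 3 were 2 with either FPKM pseudocount, 2 without a filter, and 0 to 4 with 1 library left out, where 0 to 2 were called higher.

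Over all genes, calls higher in HELLS KO were 269, but 29 where every library needed 10 counts or more, 146 on log2(FPKM + 1), 415 without a filter and 112 to 273 with 1 library left out. Calls lower were 129, and 232 by DESeq2, 48 with at least 10 counts, 285 with a batch term, 52 on log2(FPKM + 1), 200 without a filter, 267 with the replicate block, 219 in replicates 1 and 2 only, and 40 to 176 with 1 library left out. Calls higher in replicate 3 were 521, and 326 with at least 10 counts, 123 on log2(FPKM + 1), and 62 to 951 with 1 library left out; calls lower were 960, and 425 on log2(FPKM + 1) and 201 to 1174 with 1 library left out.

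Of 302 alternatives over the 19 named members, 10 turned the sign of a log2 fold change that was not called. With 1 library left out, H1-4 ranged from -0.16 (HELLS KO replicate 2 left out) to 0.47, and was -0.002487 with HAP1 replicate 3 left out. H2AC20 ranged from -0.40 (HELLS KO replicate 1) to 0.51, with -0.22 when HAP1 replicate 3 was omitted. H2AC25 ranged from -0.11 (HAP1 replicate 3) to 0.21, with -0.08 lacking HELLS KO replicate 1, and H3C13 from -0.10 (HAP1 replicate 3) to 0.84. H4C5 ranged from -0.48 to 0.13 (HAP1 replicate 1, and HELLS KO replicate 3), and was 0.13 in replicates 1 and 2 only. The causes of these changes were not tested. Most members had few counts, which limits what could be detected for a single gene.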

Other observations

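Replicate 3 was sequenced to 1.73 times the mean total of replicates 1 and 2 in HAP1 and 1.68 times in HELLS KO. Unnormalised counts of other genes with 0.1 to 0.3 counts per base of the authors' length were 1.92 and 1.83 times those of replicates 1 and 2 (medians over 5363 genes, HAP1 and HELLS KO), whereas those of 7 histone cluster genes in that range were 1.47 and 1.06 times. At 0.3 to 0.5 counts per base, H1-2, the only member there, was at 2.25 and 1.56 times against 1.69 and 1.60 times for 2709 other genes, so it was above them in HAP1. At 0.5 to 1 counts per base the other genes were at 1.43 and 1.37 times (1845 genes), and H2BC12, the only member there, was at 1.29 and 1.15 times.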
